A study of Mus musculus with 8 samples.

Results

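The 7 long noncoding RNAs described here are Malat1, Neat1, Gas5, Snhg1, Snhg12, Kcnq1ot1 and Meg3. They were taken by symbol from a table of read counts with 55304 rows. All 7 were among the 17440 genes that passed the filter on low counts. The libraries came from mouse kidney cells selected with Dolichos biflorus agglutinin (DBA), which binds collecting duct epithelium. Although the protocol names these cells as the source, its library step speaks of whole kidney. Genotypes were WT and ADPKD (polycystic kidney disease of the autosomal dominant kind), and the labels give no gene, allele, Cre driver or sex. Both genotypes were given either DMSO vehicle or 666-15, a small molecule that blocks CREB, a transcription factor of cyclic AMP signalling. The inhibitor was dosed at 5 mg/kg daily, in cycles of 5 days on and 2 days off, from postnatal day 11 and for 3 weeks. Each of the 4 groups, WT vehicle, WT inhibitor, ADPKD vehicle and ADPKD inhibitor, had 2 libraries.

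Long noncoding RNAs act as RNA rather than as templates for protein. Malat1 collects in nuclear speckles, which store splicing factors, and Neat1 is the scaffold around which paraspeckles form. Gas5, Snhg1 and Snhg12 are host transcripts whose introns carry small nucleolar RNAs (snoRNAs), guides for the chemical modification of ribosomal RNA, and the spliced Gas5 RNA is known to be degraded when it is translated. Kcnq1ot1 and Meg3 are imprinted. Kcnq1ot1 is made from the paternal chromosome and silences neighbouring genes in cis, while Meg3 is made from the maternal chromosome of the Dlk1-Dio3 domain. CREB binds the cyclic AMP response element (CRE), and the Meg3 promoter is known from earlier work to respond to cyclic AMP.

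The libraries held between 15108793 and 19702638 counts, and the 7 RNAs together took 0.418% to 0.672% of them. Replicates of a group correlated at r = 0.9776 to 0.9869 across genes. The labels do not say that replicates came from separate animals, so the p-values measure the spread between these libraries, which may be technical. One library stood apart by sex: WT inhibitor replicate 2 held 17688 counts of Xist and 0 of the Y-linked Ddx3y, against at most 8 and at least 1776 in the other 7. The 2 WT inhibitor libraries thus came from different animals, which is not known for the replicates of the other groups. The collecting duct water channel Aqp2 was detected in every library, at 275.8 to 2078 CPM. Avpr2, another of 12 principal cell markers, reached at most 0.149 CPM and did not pass the filter. At an edgeR adjusted p below 0.05, 6 of the 11 tested were higher and 4 lower in ADPKD cells on vehicle. Of all genes, 28.8% were higher and 27.6% lower there. Markers of other kidney cells were present too. In WT vehicle libraries the summed level of 12 proximal tubule markers was 15750 and 13380 CPM, above the 1371 and 1751 CPM of 12 principal cell markers. In ADPKD vehicle libraries the proximal tubule sum was 47.21 and 66.5 CPM. In such bulk samples, fewer cells of a type and less RNA per cell cannot be told apart.

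Because the drug acts on CREB, the annotated promoters of the members were read for the CRE. RefSeq (GRCm38.p6) gave windows from 250 bases before to 50 bases after the start for 6 of the 7 genes, with a second start for Gas5 and for Meg3. No window was available for Neat1, so its promoter was not searched. Searched on both strands were the palindrome TGACGTCA and its core TGACG, which reads CGTCA on the other strand. A palindrome holds 2 overlapping cores. The 5 windows below show the members with the palindrome (Meg3, Gas5), those with separate cores (Snhg12, Malat1) and 1 without either (Snhg1), with the matches in capitals and the gene's own strand printed 5′ to 3′. Meg3 (first start, plus strand, chr12:109540746-109541045) held the palindrome from -57 to -50, where -1 is the base before the start. Gas5 (second start, plus strand, chr1:161034916-161035215) held it from -46 to -39. Snhg12 (plus strand, chr4:132308428-132308727) held cores that began at -72 and -61. Malat1 (minus strand, chr19:5802623-5802922) held cores that began at -154, -45 and -3. Snhg1 (plus strand, chr19:8723237-8723536) held none of these letters.
Meg3: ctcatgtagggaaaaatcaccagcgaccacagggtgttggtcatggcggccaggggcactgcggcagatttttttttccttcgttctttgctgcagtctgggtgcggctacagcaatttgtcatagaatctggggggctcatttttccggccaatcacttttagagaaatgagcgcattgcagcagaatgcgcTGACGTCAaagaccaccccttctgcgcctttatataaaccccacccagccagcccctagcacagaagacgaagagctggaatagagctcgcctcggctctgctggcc
Gas5: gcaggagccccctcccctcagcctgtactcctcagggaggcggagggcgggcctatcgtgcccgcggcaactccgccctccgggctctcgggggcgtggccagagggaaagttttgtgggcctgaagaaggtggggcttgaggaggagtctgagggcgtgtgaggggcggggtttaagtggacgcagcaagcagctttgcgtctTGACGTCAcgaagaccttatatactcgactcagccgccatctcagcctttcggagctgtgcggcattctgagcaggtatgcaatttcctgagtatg
Snhg12: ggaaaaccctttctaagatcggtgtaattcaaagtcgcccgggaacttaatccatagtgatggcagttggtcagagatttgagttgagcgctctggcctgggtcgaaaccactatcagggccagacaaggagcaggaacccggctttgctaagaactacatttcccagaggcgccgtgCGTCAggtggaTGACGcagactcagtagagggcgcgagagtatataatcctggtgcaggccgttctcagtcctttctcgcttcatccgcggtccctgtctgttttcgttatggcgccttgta
Malat1: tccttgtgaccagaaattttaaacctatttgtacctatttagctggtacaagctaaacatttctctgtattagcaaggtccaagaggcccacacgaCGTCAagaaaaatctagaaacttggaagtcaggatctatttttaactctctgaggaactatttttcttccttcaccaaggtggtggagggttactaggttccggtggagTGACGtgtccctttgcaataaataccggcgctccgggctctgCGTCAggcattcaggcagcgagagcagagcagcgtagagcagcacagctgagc
Snhg1: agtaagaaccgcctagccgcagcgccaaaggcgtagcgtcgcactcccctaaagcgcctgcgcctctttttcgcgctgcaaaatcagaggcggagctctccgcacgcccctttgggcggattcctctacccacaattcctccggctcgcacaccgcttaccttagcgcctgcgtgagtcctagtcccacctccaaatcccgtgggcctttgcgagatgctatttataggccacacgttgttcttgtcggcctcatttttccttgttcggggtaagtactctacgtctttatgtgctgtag

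Across all 32851 mouse promoter windows of the same length, 1.79% held the palindrome and 20.81% held at least 1 core. At least 2 cores were found in 5.01% of windows and at least 3 in 1.03%. The Kcnq1ot1 window (minus strand, chr7:143296498-143296797) held 1 core that began at -42, and the other starts of Gas5 and Meg3 held none. A match describes the sequence, and binding was not measured here.

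**Figure D1:**
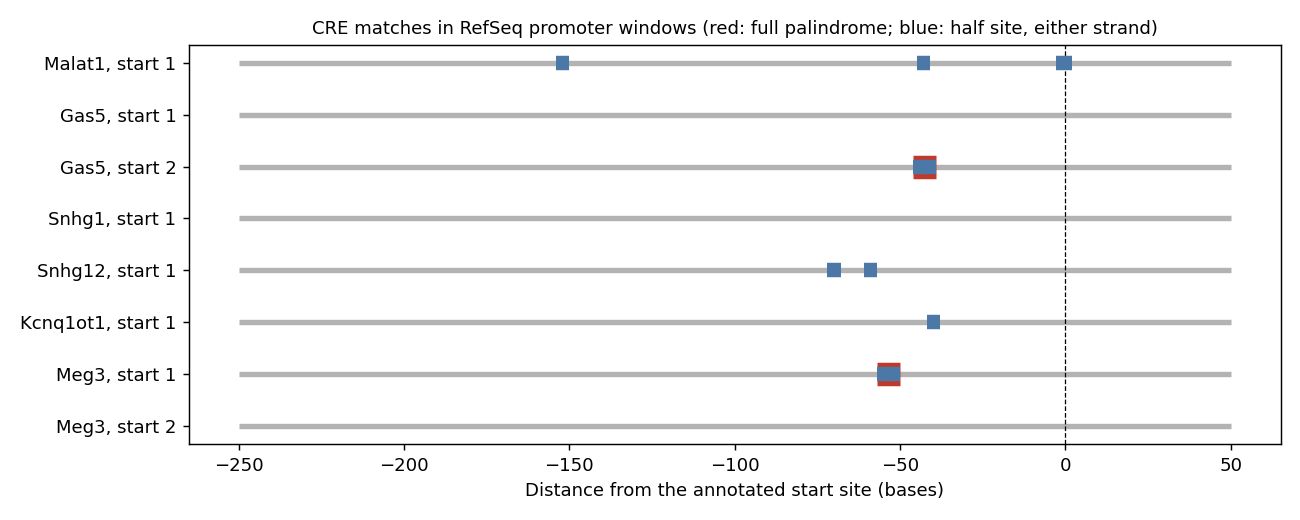
CRE matches in 8 RefSeq promoter windows of 6 genes, by distance from the annotated start site in bases. Neat1 is absent because no window was available for it. Red blocks mark the palindrome and blue blocks the core on either strand; the palindrome appears in 1 window of Meg3 and 1 of Gas5, and Malat1 has 3 separate cores.

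The word abundant fits Malat1 and Neat1 better than the rest. Averaged over the 8 libraries, Malat1 reached 4324 CPM (counts scaled to library size with TMM factors) and was the 7th of 17440 genes, and Neat1 reached 1360 CPM at rank 49. Gas5 stood at 99.07 CPM (rank 2412), Kcnq1ot1 at 46.94 CPM (rank 4659), Snhg1 at 33.41 CPM (rank 5819) and Snhg12 at 17.65 CPM (rank 7904). Meg3, at 5.89 CPM, ranked 10822, below the middle of the tested genes. Levels of different genes compare only per length. Per kilobase of annotated exon, the mean levels were 619.2 CPM for Malat1, 65.5 for Neat1, 26.4 for Gas5, 11.2 for Snhg1, 7.35 for Snhg12, 0.504 for Kcnq1ot1 and 0.326 for Meg3. Malat1 was thus 9.45 times as high as Neat1 per kilobase. That ratio divides Neat1 by its whole annotated exon of 20771 bases, which joins short and long isoforms. It describes RNA captured with oligo dT, and how well each RNA was captured was not tested. Kcnq1ot1, above Snhg1 and Snhg12 in CPM, was below them on this scale, with an annotated exon of 93092 bases.

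**Figure D2:**
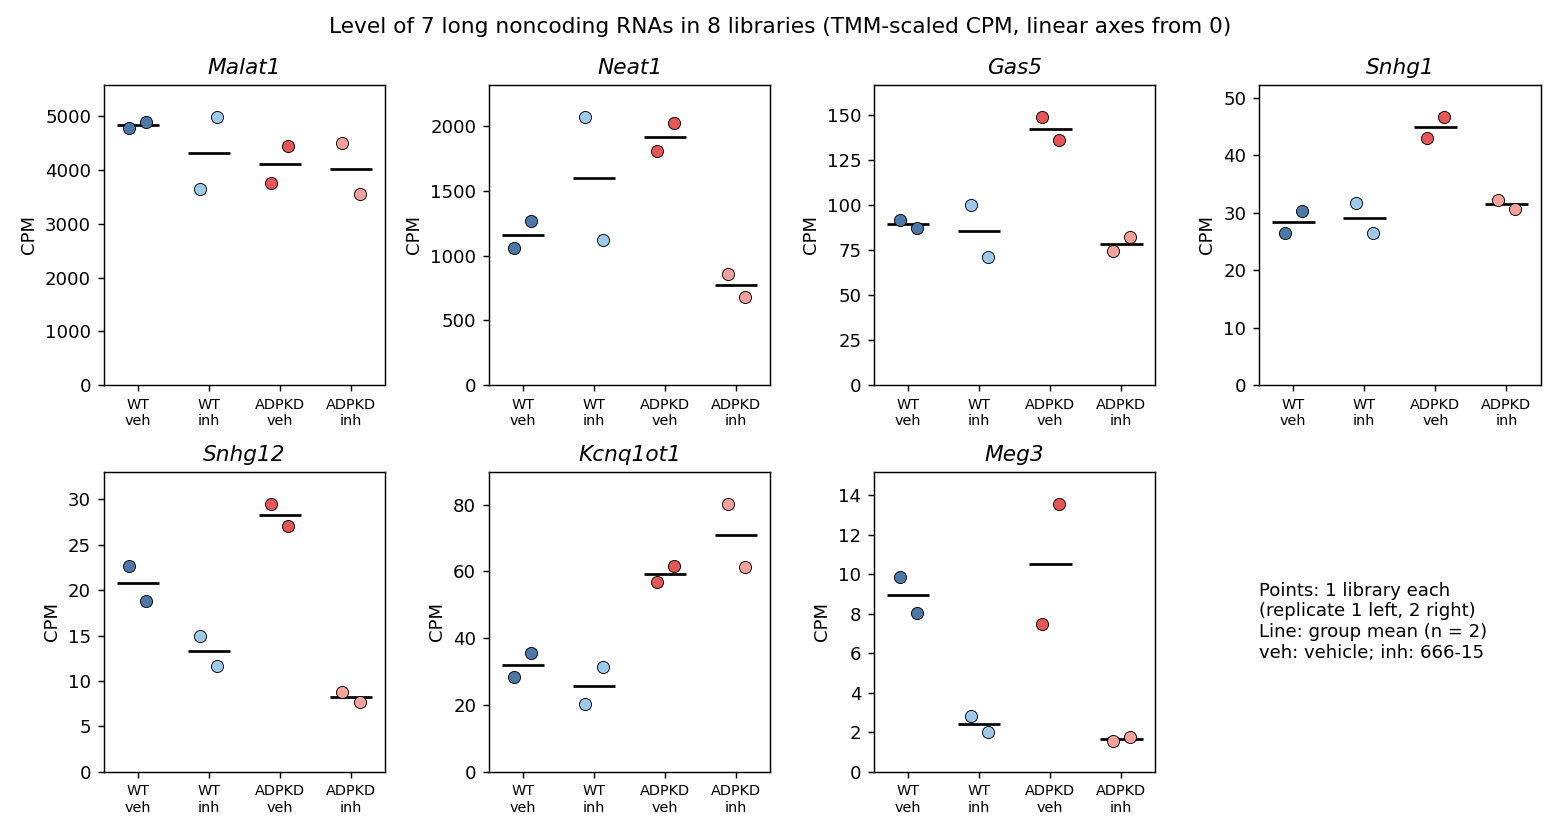
Level of the 7 RNAs in 8 libraries, in TMM-scaled CPM on linear axes from 0; each point is 1 library and each line a group mean of 2. Meg3 and Snhg12 were lower in all 4 inhibitor libraries than in any vehicle library, while Malat1 stayed between 3548 and 4989 CPM.

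In vehicle-treated mice, 4 of the 7 RNAs were higher in ADPKD than in WT cells and 0 were lower, at an edgeR adjusted p below 0.05. At an unadjusted p below 0.05 the counts were 5 and 0, and by DESeq2's adjusted p 3 and 0. Gas5, Snhg1, Snhg12 and Kcnq1ot1 rose, by 1.36- to 1.86-fold. Of all 17440 genes, 56.4% passed that test (28.8% higher and 27.6% lower), so a call in this comparison was common. With the inhibitor in ADPKD cells, 0 members rose and 5 fell (Neat1, Gas5, Snhg1, Snhg12 and Meg3), where 41.4% of all genes passed (22.3% higher and 19.1% lower); both counts were the same by DESeq2 and at an unadjusted p. In WT cells the inhibitor lowered 2 members, Snhg12 and Meg3, where 25.5% of all genes passed (13.9% higher and 11.6% lower). Between genotypes under inhibitor, 1 member was higher in ADPKD (Kcnq1ot1) and 2 were lower (Neat1 and Snhg12), where 46.3% of all genes passed (21.8% higher and 24.5% lower). For 3 members (Neat1, Gas5 and Snhg12) the inhibitor's signed log2 fold change was lower in ADPKD than in WT cells by the interaction test. In that order it was -1.32, -0.86 and -1.77 in ADPKD cells and 0.46, -0.06 and -0.64 in WT cells. Of all genes, 26.6% passed the interaction test (13.6% higher and 13% lower).

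Some of these counts rested on single libraries. The 5 members that fell in ADPKD cells became 3 without ADPKD vehicle replicate 2 or ADPKD inhibitor replicate 2. The 2 in WT cells became 1 without WT vehicle replicate 1, and the 3 between genotypes under inhibitor became 1 without ADPKD inhibitor replicate 2. The 3 of the interaction became 1 without ADPKD inhibitor replicate 1 and 5 without WT inhibitor replicate 2. The genotype comparison on vehicle and the inhibitor comparison in ADPKD cells share the 2 ADPKD vehicle libraries, so a high value there enters both.

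**Figure D3:**
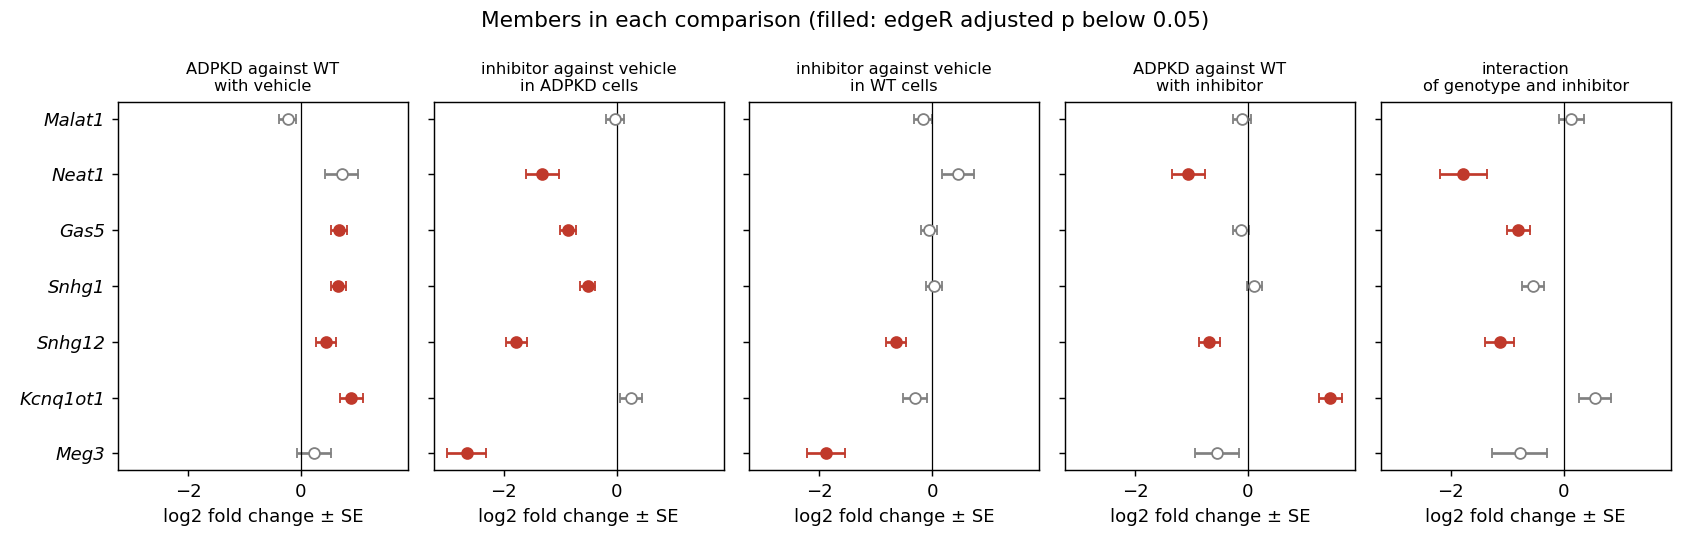
Log2 fold change of each member with its standard error in the 5 comparisons; filled points passed an edgeR adjusted p of 0.05. In the inhibitor comparison in ADPKD cells 5 filled points lie below 0, and Malat1 is open in all 5 panels.

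Malat1 (GRCm38, chr19:5795690-5802672, minus strand) is a nearly unspliced RNA with a 1-exon longest transcript of 6983 bases. Its level was 4783 and 4902 CPM in WT vehicle, 3643 and 4989 in WT inhibitor, 3769 and 4452 in ADPKD vehicle, and 4508 and 3548 in ADPKD inhibitor. The WT vehicle libraries lay above all 4 ADPKD libraries, and every other pair of groups overlapped. Group means ran from 4842 ± 84.1 CPM (SD, n = 2) in WT vehicle down to 4028 ± 679 in ADPKD inhibitor, and no neighbours in that order differed beyond their spread. In the genotype comparison on vehicle the log2 fold change was -0.24 ± 0.157 (SE; adjusted p = 0.225, edgeR's quasi-likelihood test), and 0 of the 5 comparisons passed. That comparison did pass when only its 2 groups entered the fit (-0.31, adjusted p = 0.0255) and with no filter on low counts (-0.27, adjusted p = 0.00971), in a range of adjusted p from 0.00971 to 0.619. With the inhibitor the log2 differences were -0.03 in ADPKD cells (adjusted p = 0.901) and -0.17 in WT cells (adjusted p = 0.488).

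Neat1 (chr19:5824708-5845478, minus strand) lies near Malat1, and its annotated exon of 20771 bases joins the short and long isoforms that a gene-level count cannot separate. Its level was 1056 and 1266 CPM in WT vehicle, 2069 and 1122 in WT inhibitor, 1807 and 2023 in ADPKD vehicle, and 855.7 and 683.2 in ADPKD inhibitor. The ADPKD inhibitor libraries were the lowest 2 of the 8, and the WT inhibitor libraries lay far apart, with replicate 1 the highest of the 8. In ADPKD cells the inhibitor lowered Neat1 by 2.49-fold (log2 -1.32 ± 0.294, adjusted p = 0.0138). In WT cells the log2 difference was 0.46 ± 0.289 (adjusted p = 0.314), and the difference between the genotypes' responses was -1.77 ± 0.412 (adjusted p = 0.0243). On vehicle, both ADPKD libraries lay above both WT libraries, but the log2 difference of 0.72 ± 0.29 did not pass (adjusted p = 0.0775). Under inhibitor Neat1 was lower in ADPKD than in WT cells (-1.05 ± 0.292, adjusted p = 0.0274).

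These Neat1 calls were not stable. The fall in ADPKD cells no longer passed without ADPKD vehicle replicate 1 (adjusted p = 0.0629), ADPKD vehicle replicate 2 (0.0806) or ADPKD inhibitor replicate 2 (0.0928), nor with no filter on low counts (0.0878). Over all alternatives its log2 value stayed between -1.64 and -1.15 and its adjusted p between 1.2e-05 and 0.0928. The interaction was lost without WT vehicle replicate 1 (adjusted p = 0.123) or 2 (0.0823), ADPKD vehicle replicate 1 (0.0799) or 2 (0.0922), ADPKD inhibitor replicate 1 (0.0596) or 2 (0.0946), and with no filter (0.127). The genotype difference under inhibitor was lost in the same 7 settings, at adjusted p = 0.0641, 0.0611, 0.0666, 0.0649, 0.0721, 0.143 and 0.135 in that order. Without WT inhibitor replicate 1 it passed at -0.55. The WT response was 0.83 without WT inhibitor replicate 2, the female library (adjusted p = 0.00331), and -0.05 without replicate 1 (0.856). The genotype comparison on vehicle passed in 5 alternatives, among them the 2 groups alone (0.64, adjusted p = 0.000996) and leaving out WT inhibitor replicate 1 (0.000511) or 2 (0.000854), over a range up to 0.331.

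The ratio of Malat1 to Neat1 counts within a library does not depend on scaling. There were 4.53 and 3.87 Malat1 reads per Neat1 read in WT vehicle, 1.76 and 4.44 in WT inhibitor, 2.09 and 2.2 in ADPKD vehicle, and 5.27 and 5.19 in ADPKD inhibitor. The ADPKD inhibitor libraries had the highest ratios and the ADPKD vehicle libraries ratios below both WT vehicle libraries. WT inhibitor replicate 1 had the lowest ratio of the 8. Several marker sums also differed within that pair: between WT inhibitor replicates 1 and 2 they were 1096 and 615.1 CPM for podocytes, the filter cells of the glomerulus, 1567 and 907 for endothelial and 325.1 and 204.7 for stromal cells. The podocyte sum was 757.4 and 733 CPM in WT vehicle, 240.1 and 235.2 in ADPKD vehicle, where Neat1 stood higher, and 133.6 and 120.5 in ADPKD inhibitor. In the same order, the endothelial sum was 1801 and 1571, 1325 and 1620, and 451.1 and 361.8 CPM. The stromal sum was 361.6 and 314.7, 856.8 and 892.2, and 450.9 and 413.6 CPM. All 8 podocyte markers were detected in all 8 libraries. The part of podocyte, endothelial and stromal cells in the Neat1 values was not tested.

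**Figure D4:**
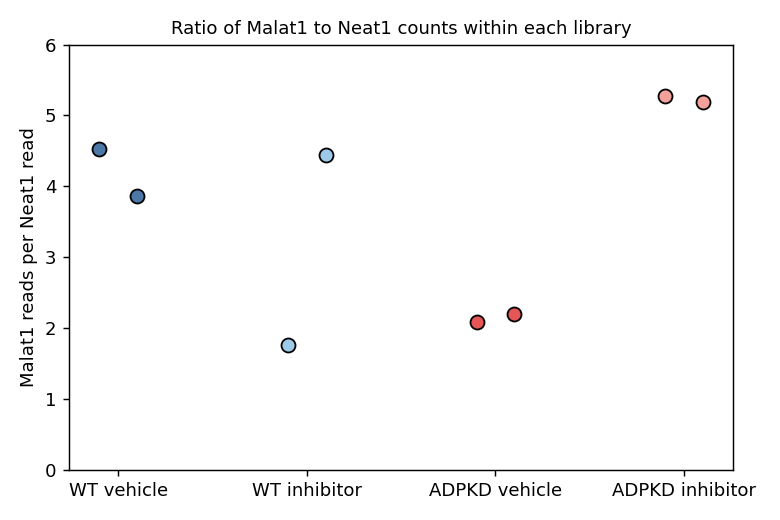
Malat1 reads per Neat1 read within each library, by group; each point is 1 library. The ADPKD vehicle points lie at 2.09 and 2.2 and the ADPKD inhibitor points at 5.27 and 5.19, while the WT inhibitor points are far apart.

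Genes for the proteins of these nuclear bodies were described by counts, beside the shares of all genes. On vehicle, 28.8% of all genes were higher and 27.6% lower in ADPKD cells. With the inhibitor in ADPKD cells these shares were 22.3% and 19.1%. Of 23 paraspeckle protein genes, 13 were higher and 1 was lower in ADPKD than in WT cells on vehicle, with a median log2 difference of 0.281 against 0.0529 over all genes. The 13 became 8 without WT vehicle replicate 1 or ADPKD vehicle replicate 2, and the 1 became 0 without WT vehicle replicate 1 and 2 in 6 other alternatives, among them RLE scaling, the size factors of DESeq2. Pspc1 rose (1.18 ± 0.11), as did Sfpq (0.69 ± 0.0905), which with Nono binds Neat1 as the core of the body. With the inhibitor in ADPKD cells, where Neat1 fell, 7 of the 23 rose and 4 fell, with a median of -0.048. Taf15, an RNA-binding protein, fell (-0.96 ± 0.1) and Matr3, a nuclear matrix protein, rose (0.66 ± 0.0972). These counts became 3 and 7 with the GC trend removed and 4 and 7 with the 5 CPM filter, which tests only genes that reach 5 CPM in 2 libraries, and the 7 that rose became 4 without ADPKD vehicle replicate 1 and 3 without ADPKD inhibitor replicate 2. That median lay above 0, by at most 0.0454, without ADPKD vehicle replicate 1, ADPKD vehicle replicate 2 or ADPKD inhibitor replicate 1. Of 24 nuclear speckle protein genes, 10 were higher and 6 lower in each of these comparisons. Their medians were 0.184 on vehicle and 0.0972 with the inhibitor, against 0.0529 and 0.0167 over all genes. In the inhibitor comparison the 6 became 1 to 3 when either library of WT vehicle, ADPKD vehicle or ADPKD inhibitor was left out, and the 10 became 4 with the GC trend removed. The splicing factor Tra2a rose in ADPKD cells (1.34 ± 0.0938) and the speckle scaffold genes Srrm2 (0.95 ± 0.101) and Son (0.79 ± 0.0951) rose with the inhibitor in ADPKD cells.

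Gas5 (chr1:161034422-161038539, plus strand) has 25 annotated transcripts and 10 snoRNA genes inside its span. Its level was 91.6 and 87.3 CPM in WT vehicle, 100.1 and 71.3 in WT inhibitor, 149 and 136.2 in ADPKD vehicle, and 74.5 and 82.5 in ADPKD inhibitor. The 2 ADPKD vehicle libraries were above the other 6. Among these the WT vehicle libraries lay above the ADPKD inhibitor libraries, and the WT inhibitor pair overlapped both. Gas5 was 1.59-fold higher in ADPKD than in WT cells on vehicle (log2 0.67 ± 0.14, adjusted p = 0.0013). The inhibitor lowered it 1.82-fold in ADPKD cells (-0.86 ± 0.141, adjusted p = 0.000471), to 78.5 ± 5.62 CPM (SD, n = 2) against 89.5 ± 3.07 in WT vehicle. Both calls held in all 18 alternatives. In WT cells the log2 difference was -0.06 (adjusted p = 0.788), and the responses of the genotypes differed by -0.80 ± 0.199 (adjusted p = 0.011). That difference was not called without ADPKD inhibitor replicate 1 (adjusted p = 0.066) and was -0.52 without WT inhibitor replicate 1, with adjusted p from 8.57e-05 to 0.066 over the alternatives. Genotypes under inhibitor differed by -0.13 (adjusted p = 0.494), and by -0.34 without WT inhibitor replicate 2 (adjusted p = 0.0262; range 0.0262 to 0.941).

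In the inhibitor comparison in ADPKD cells, fold changes followed transcript GC content (Spearman's rho = -0.354 across 17252 genes, which are not independent replicates). The median log2 fold change of the 1000 genes nearest to Gas5 in GC content was 0.327, against -0.86 for Gas5 itself. For Kcnq1ot1 that median was 0.402, against 0.26 for Kcnq1ot1 itself. With the GC trend removed, Gas5 was at -1.19 and Kcnq1ot1 at -0.12. Zbtb37, whose span overlaps the Gas5 span on the opposite strand without sharing exon bases, did not pass in the same comparison (0.38 ± 0.162, adjusted p = 0.0757).

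Snhg1 (chr19:8723475-8726443, plus strand) hosts 8 snoRNA genes, among them Snord22. Its level was 26.4 and 30.2 CPM in WT vehicle, 31.6 and 26.4 in WT inhibitor, 43.1 and 46.6 in ADPKD vehicle, and 32.3 and 30.6 in ADPKD inhibitor. As for Gas5, the ADPKD vehicle libraries were the 2 highest. Snhg1 was 1.58-fold higher in ADPKD cells on vehicle (log2 0.66 ± 0.137, adjusted p = 0.00109), a call that held in all 18 alternatives. With the inhibitor in ADPKD cells it fell 1.43-fold (-0.51 ± 0.137, adjusted p = 0.00961). This fall did not pass without ADPKD vehicle replicate 2 (adjusted p = 0.0602), ADPKD inhibitor replicate 1 (0.0527) or ADPKD inhibitor replicate 2 (0.0868), over a range from 0.000567. In WT cells the difference was 0.04 (adjusted p = 0.881). The difference between the genotypes' responses was -0.55 ± 0.195 (adjusted p = 0.0548), at up to 0.237 over the alternatives. It passed without WT inhibitor replicate 2 (-0.65, adjusted p = 0.0243) and after removal of the GC trend (-0.89, 0.0085).

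Slc3a2, which encodes the heavy chain shared by several amino acid transporters, starts 106 bases from Snhg1 on the opposite strand. It moved in the same directions: 0.29 ± 0.0947 between genotypes on vehicle (adjusted p = 0.0183) and -1.09 ± 0.0959 with the inhibitor in ADPKD cells (adjusted p = 5.3e-06). In WT cells its log2 difference was -0.27 ± 0.0948 (adjusted p = 0.0524). Its counts per library, from 6383 to 17576, were far above the 418 to 859 of Snhg1. The annotated spans of Slc3a2 and Snhg1 do not overlap and share 0 exon bases, and the labels do not say that the counting used strand.

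Snhg12 (chr4:132308623-132311024, plus strand) hosts 5 snoRNA genes and showed the largest inhibitor response of the 3 hosts among the members. Its level was 22.7 and 18.8 CPM in WT vehicle, 14.9 and 11.7 in WT inhibitor, 29.5 and 27 in ADPKD vehicle, and 8.79 and 7.74 in ADPKD inhibitor. The groups did not overlap in any of the 4 comparisons between groups, and the order ran from ADPKD vehicle through WT vehicle and WT inhibitor to ADPKD inhibitor. In ADPKD cells the inhibitor lowered Snhg12 3.42-fold (log2 -1.77 ± 0.183, adjusted p = 1.49e-05), in all 18 alternatives. In WT cells it lowered Snhg12 1.56-fold (-0.64 ± 0.177, adjusted p = 0.0174), but not without WT vehicle replicate 1 (adjusted p = 0.188) or WT inhibitor replicate 2 (0.11), over a range from 0.00593. The responses of the genotypes differed by -1.13 ± 0.254 (adjusted p = 0.0058), which passed in all 17 alternatives. On vehicle the genotype difference was 0.45 ± 0.171 (adjusted p = 0.0406). It was lost in 10 of 18 alternatives, at an adjusted p of up to 0.312. These were DESeq2 (0.41, adjusted p = 0.0966), RLE scaling (0.0581), no filter (0.0763), the 2 groups alone (0.0593), and leaving out WT vehicle replicate 1 (0.0656) or 2 (0.30, 0.312), ADPKD vehicle replicate 1 (0.166) or 2 (0.0696), or ADPKD inhibitor replicate 1 (0.0654) or 2 (0.0652). Its lowest adjusted p was 0.0205.

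Under inhibitor Snhg12 was lower in ADPKD than in WT cells (-0.69 ± 0.187, adjusted p = 0.00918). That call was lost without WT inhibitor replicate 1 (adjusted p = 0.0753), without ADPKD inhibitor replicate 2 (0.0803) and with the transcript length trend removed (0.0691), over a range from 0.00285. Trnau1ap, a selenocysteine incorporation factor 739 bases away on the opposite strand, was also lower with the inhibitor in WT cells (-0.47 ± 0.148, adjusted p = 0.0323) and in ADPKD cells (-0.41 ± 0.151, adjusted p = 0.045). Unlike Snhg12 it was lower, not higher, in ADPKD cells on vehicle (-0.43 ± 0.147, adjusted p = 0.025).

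The snoRNAs inside the 3 hosts were not measured. Of 23 snoRNA genes annotated within them, 22 had rows in the table and 0 had a count in any library. The RNA was selected with oligo dT, and snoRNAs carry no poly(A) tail, so these zeros do not bear on snoRNA levels. The annotated bases of these snoRNA genes also lie within exon bases of their hosts, and how reads there were assigned was not tested.

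Noncoding snoRNA hosts as a group were described next, the 3 members included. The shares of all genes were 28.8% higher and 27.6% lower between genotypes on vehicle. With the inhibitor they were 22.3% and 19.1% in ADPKD cells and 13.9% and 11.6% in WT cells. Of 21 listed hosts, 18 were tested. Between genotypes on vehicle 10 were higher and 2 lower, with a median log2 difference of 0.477 against 0.0529 over all genes. With the inhibitor in ADPKD cells 3 were higher and 9 lower, with a median of -0.689 against 0.0167. Without the 3 members, the counts over the remaining 15 hosts were 7 higher and 2 lower on vehicle, and 3 higher and 6 lower with the inhibitor. In WT cells 1 rose (Snhg18) and 1 fell (Snhg12), with a median of -0.055. The list was chosen with earlier results of these data known. No left-out library changed the direction of either of the first 2 medians. In WT cells the median became 0.157 without WT inhibitor replicate 2, and the counts higher and lower were 0 and 0 without WT vehicle replicate 1, 1 and 4 without WT inhibitor replicate 1, and 2 and 0 without WT inhibitor replicate 2. They were 1 and 3 with RLE scaling or the 5 CPM filter, and 1 and 2 with the GC trend removed.

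Zfas1, the host named for its place beside Znfx1, had the largest rise that passed among these hosts. Its level was 13.6 and 15.6 CPM in WT vehicle, 14.5 and 8.86 in WT inhibitor, 48.1 and 46.7 in ADPKD vehicle, and 11.1 and 11.9 in ADPKD inhibitor. It rose in ADPKD cells on vehicle (log2 1.70 ± 0.196) and fell with the inhibitor in ADPKD cells (-2.05 ± 0.202). Snhg6 (-0.91 ± 0.141) and Snhg8 (-1.42 ± 0.195) also fell with the inhibitor in ADPKD cells. Others went the opposite way. Snhg11 was at 50.8 and 54.7 CPM in WT vehicle but 0.207 and 0.326 in ADPKD vehicle, and 4.36 and 5.16 in ADPKD inhibitor. Snhg18 was lower in ADPKD cells (-0.96 ± 0.196) and higher with the inhibitor in WT cells (0.78 ± 0.188). Snhg14, the imprinted host in the Prader-Willi region, was called higher with the inhibitor in ADPKD cells, at 8.46 and 9.57 against 4.05 and 2.88 CPM.

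**Figure D5:**
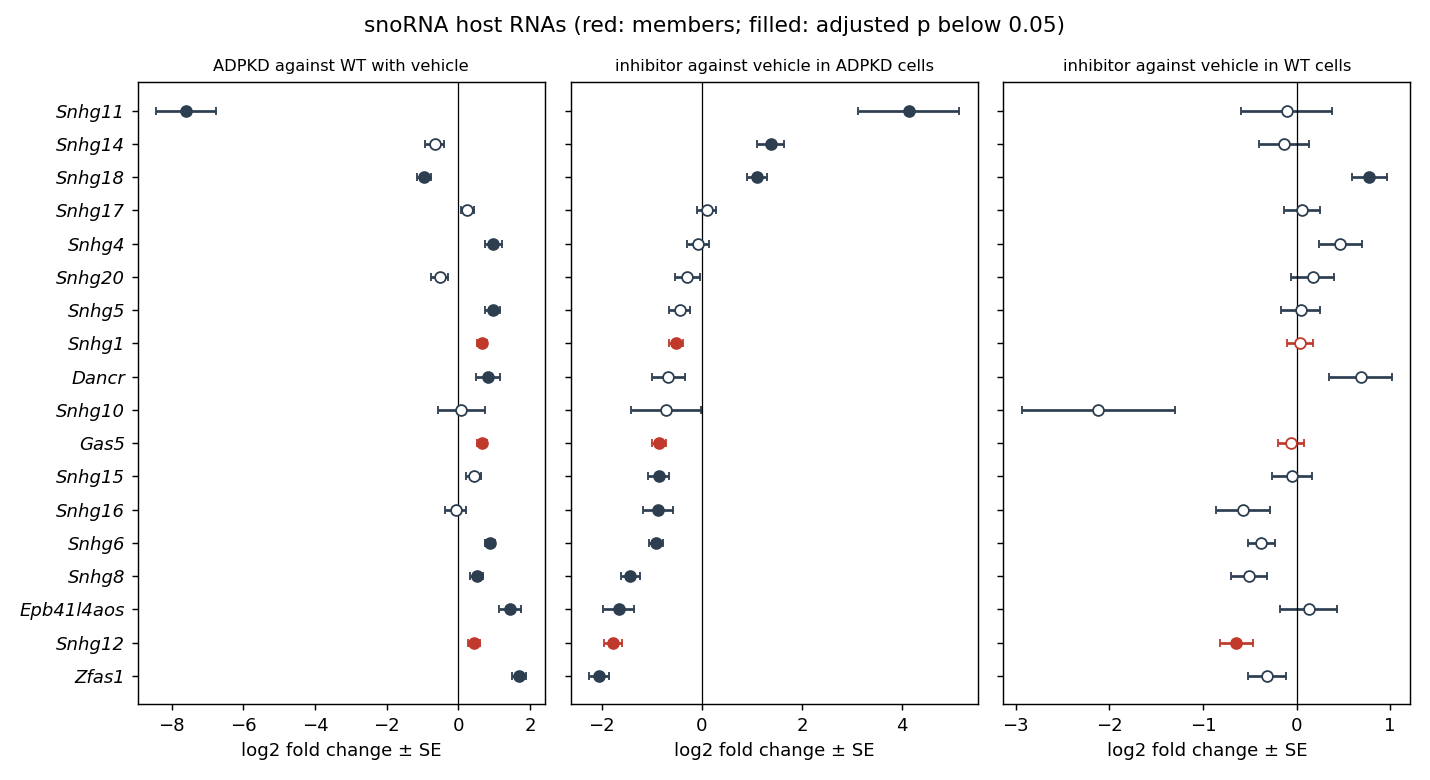
Log2 fold change with its standard error of 18 snoRNA host RNAs in 3 comparisons, each panel with its own axis; red points are the members and filled points passed an adjusted p of 0.05. Zfas1 lies at 1.70 in the genotype comparison and at -2.05 in the inhibitor comparison in ADPKD cells.

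Genes of the machinery these RNAs serve were counted in the same way, beside the same shares of all genes. These shares were 28.8% higher and 27.6% lower on vehicle, and 22.3% and 19.1% with the inhibitor in ADPKD cells. Of 18 translation factor genes with a terminal oligopyrimidine start, the class of transcript to which Gas5 belongs, 16 were higher and 0 lower in ADPKD cells on vehicle, with a median of 0.905 (0 were lower by DESeq2 and at an unadjusted p too). With the inhibitor in ADPKD cells 2 were higher and 10 lower; the 10 became 5 without ADPKD vehicle replicate 1 and 3 without ADPKD inhibitor replicate 1. Fau, a ribosomal protein fused to a ubiquitin-like domain, fell (-1.18 ± 0.111), whereas the poly(A)-binding Pabpc1 rose (0.69 ± 0.103). Of 13 core proteins of snoRNA particles, 6 were higher and 1 lower on vehicle, and 2 were higher and 6 lower with the inhibitor in ADPKD cells, the 6 becoming 3 without ADPKD inhibitor replicate 1. Each of these counts of 1 or 2 genes moved by 1 when some libraries were left out and under other alternatives, RLE scaling among them. The box C/D proteins Nop56 (0.80 ± 0.112) and Fbl (0.78 ± 0.122) rose in ADPKD cells and fell with the inhibitor there (-0.60 ± 0.112 and -0.61 ± 0.122). Of 16 factors of nonsense-mediated decay, the pathway that degrades spliced Gas5, 6 were higher and 4 lower on vehicle, the 4 becoming 2 without WT vehicle replicate 2 or ADPKD vehicle replicate 1. With the inhibitor in ADPKD cells 7 were higher and 1 lower. The 7 became 4 without ADPKD vehicle replicate 1 or ADPKD inhibitor replicate 1, and the 1 became 2 in 6 alternatives, 3 of them left-out libraries.

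Meg3 (chr12:109541001-109571726, plus strand) was the least abundant member and the one that fell furthest with the inhibitor. It had 198 and 136 counts in WT vehicle, 43 and 32 in WT inhibitor, 144 and 250 in ADPKD vehicle, and 24 and 26 in ADPKD inhibitor. In CPM these were 9.86 and 8.03, 2.85 and 2.02, 7.47 and 13.6, and 1.56 and 1.76. All 4 inhibitor libraries lay below all 4 vehicle libraries, and the 2 vehicle groups overlapped. In ADPKD cells Meg3 fell 6.3-fold (log2 -2.66 ± 0.348, adjusted p = 8.14e-05) and in WT cells 3.67-fold (-1.88 ± 0.332, adjusted p = 0.00108). Both falls passed in all 18 alternatives, with log2 values from -3.02 to -2.15 in ADPKD and from -2.14 to -1.66 in WT cells. The difference between these responses was -0.78 ± 0.483 (adjusted p = 0.262). Genotypes did not pass on vehicle (0.23 ± 0.296, adjusted p = 0.533) or under inhibitor (-0.55, adjusted p = 0.265). Without ADPKD vehicle replicate 2 the vehicle value was -0.28.

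Markers of vessel and stromal cells moved with Meg3 in part. Among all genes, 19.1% were lower with the inhibitor in ADPKD cells and 11.6% in WT cells. The summed level of 12 endothelial markers was 1801 and 1571 CPM in WT vehicle, 1567 and 907 in WT inhibitor, 1325 and 1620 in ADPKD vehicle, and 451.1 and 361.8 in ADPKD inhibitor. All 12 were lower with the inhibitor in ADPKD cells, and 1 of 12 was lower in WT cells. The sum of 12 stromal markers was 361.6 and 314.7, 325.1 and 204.7, 856.8 and 892.2, and 450.9 and 413.6 CPM in the same order. Of these, 5 were lower with the inhibitor in ADPKD cells and 1 in WT cells. None of the 24 was at 0 in any library. In WT inhibitor replicate 1 Meg3 was at 2.85 CPM, with an endothelial sum of 1567 CPM and a stromal sum of 325.1 CPM. In WT inhibitor replicate 2 all of these were lower, with Meg3 at 2.02 CPM and sums of 907 and 204.7 CPM. Tubule markers moved in both directions in WT cells, where Meg3 fell. From vehicle to inhibitor the proximal tubule sum went from 15750 and 13380 to 6159 and 5750 CPM (8 of 12 markers lower), thick ascending limb from 6764 and 6654 to 3153 and 4153 (7 of 8 lower) and distal convoluted tubule from 2740 and 2579 to 1389 and 1617 (5 of 7 lower). Collecting duct markers rose in WT cells, where 13.9% of all genes were higher. The principal cell sum went from 1371 and 1751 to 6543 and 6656 CPM (10 of 11 tested higher). The intercalated cell sum went from 928.2 and 969.3 to 2205 and 2672 CPM (7 of 11 higher). In ADPKD cells the proximal tubule sum was higher with the inhibitor, at 383.8 and 413.2 against 47.21 and 66.5 CPM. The principal, intercalated and distal convoluted tubule sums were higher there too, and the thick ascending limb sum was lower. The part of these cells in the Meg3 result was not tested.

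Meg3 shares its domain with the maternally expressed noncoding RNAs Rian and Mirg and the paternally expressed Dlk1, Rtl1 and Dio3. Rian stood at 7.27 and 4.67 CPM in WT vehicle, 5.37 and 3.86 in WT inhibitor, 8.2 and 12 in ADPKD vehicle, and 2.99 and 2.71 in ADPKD inhibitor. Rian fell under the inhibitor in ADPKD cells (-1.82 ± 0.318, adjusted p = 0.000637), while in WT cells the difference was -0.38 ± 0.308 (adjusted p = 0.409). The responses of the genotypes differed by -1.44 ± 0.442 (adjusted p = 0.0297). Mirg, at 0.622 and 1.14 CPM in ADPKD vehicle and 0.195 and 0 in ADPKD inhibitor, was also called lower there, on very few counts. Dlk1, a ligand-like growth regulator, was at 9.46 and 10.5 CPM in WT vehicle and 0.571 and 0.543 in ADPKD vehicle. Rtl1 was at 1.59 and 1.18 CPM in WT vehicle and 0 and 0.163 in ADPKD vehicle. Begain was at 0.149 and 0.236 CPM in WT vehicle and 1.45 and 0.923 in ADPKD vehicle. Dio3 stayed at or below 0.869 CPM everywhere. Of the flanking genes, Ppp2r5c rose with the inhibitor in ADPKD cells (0.33 ± 0.113, adjusted p = 0.0355) and Wdr25 did not pass there (0.02 ± 0.425).

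Among all genes, 28.8% were higher and 27.6% lower between genotypes on vehicle. With the inhibitor the shares were 22.3% and 19.1% in ADPKD cells and 13.9% and 11.6% in WT cells. Over the 8 genes of the domain apart from Meg3, 2 were higher and 2 lower between genotypes on vehicle. With the inhibitor 1 was higher and 2 lower in ADPKD cells, and 0 passed in either direction in WT cells (edgeR; also 0 by DESeq2), a comparison in which Meg3 fell. At an unadjusted p below 0.05 the count in WT cells was 0 too. The 2 that were higher on vehicle became 1 when any library of WT vehicle, ADPKD vehicle or ADPKD inhibitor was left out, and also with RLE scaling, the 5 CPM filter, the 2 groups alone, DESeq2 or the GC trend removed. The 2 that were lower became 1 with the 5 CPM filter. In ADPKD cells the counts became 0 and 1 without ADPKD vehicle replicate 2, without ADPKD inhibitor replicate 2 or with the 5 CPM filter. The 1 that was higher there also became 0 with the 2 groups alone, DESeq2, or the GC or length trend removed. The median log2 difference in WT cells was -0.301, against -0.00772 over all genes.

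Kcnq1ot1 (chr7:143203458-143296549, minus strand) lies antisense within Kcnq1. Its level was 28.4 and 35.4 CPM in WT vehicle, 20.3 and 31.2 in WT inhibitor, 56.9 and 61.5 in ADPKD vehicle, and 80.2 and 61.4 in ADPKD inhibitor. All 4 ADPKD libraries lay above all 4 WT libraries, and within each genotype the vehicle and inhibitor libraries overlapped. Kcnq1ot1 was 1.86-fold higher in ADPKD cells on vehicle (log2 0.89 ± 0.2, adjusted p = 0.00293) and 2.74-fold higher under inhibitor (1.46 ± 0.205, adjusted p = 0.000185). Both passed in all 18 alternatives. The inhibitor's log2 difference was 0.26 ± 0.196 in ADPKD cells (adjusted p = 0.32) and -0.30 in WT cells (adjusted p = 0.318). Without WT inhibitor replicate 2, the WT difference passed (-0.65, adjusted p = 0.0354; range up to 0.935), as did the difference between the responses, which was 0.56 with all libraries (adjusted p = 0.174) and 0.93 without that one (adjusted p = 0.014; range up to 0.788).

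Kcnq1 encodes a potassium channel and shares 121 exon bases with Kcnq1ot1, whose reads there cannot be told apart without strand. The whole 93092-base exon of Kcnq1ot1 also lies within the Kcnq1 span. Without strand, reads of unspliced Kcnq1 RNA over that exon could count as Kcnq1ot1, and their part was not tested. Kcnq1 was at 44.6 and 52.3 CPM in WT vehicle, 152.1 and 169 in WT inhibitor, 74.7 and 58.5 in ADPKD vehicle, and 89.5 and 95.6 in ADPKD inhibitor. Unlike Kcnq1ot1 it rose with the inhibitor in WT cells (1.73 ± 0.132, adjusted p = 1.75e-06) and was lower in ADPKD than in WT cells under inhibitor (-0.79 ± 0.129, adjusted p = 0.000262). Principal cell markers moved with it: their summed level was 6543 and 6656 CPM in WT inhibitor and 1371 and 1751 in WT vehicle, and their part in the Kcnq1 values was not tested.

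Cdkn1c, a cell cycle inhibitor and a target of Kcnq1ot1 silencing, was at 26.5 and 24.3 CPM in WT vehicle, 42.4 and 30.9 in WT inhibitor, 44.9 and 30.7 in ADPKD vehicle, and 5.99 and 5.84 in ADPKD inhibitor. Cdkn1c was lower with inhibitor than with vehicle in ADPKD cells (-2.67 ± 0.219, adjusted p = 4.37e-06), where Kcnq1ot1 did not pass. The podocyte marker sum, of cells that express Cdkn1c, was 240.1 and 235.2 CPM in ADPKD vehicle and 133.6 and 120.5 in ADPKD inhibitor, and its part was not tested. On vehicle Cdkn1c and Kcnq1ot1 were both higher in ADPKD cells, Cdkn1c by 0.57 ± 0.193. Slc22a18, an organic cation transporter gene of the same domain, was at 234.9 and 204 CPM in WT vehicle and 7.78 and 6.62 in ADPKD vehicle. Phlda2 was lower in ADPKD cells too (-0.98 ± 0.225). Among all genes, 28.8% were higher and 27.6% lower in ADPKD cells on vehicle, and 21.8% and 24.5% under inhibitor. Over the 10 genes of the domain tested, 4 were higher and 3 lower in ADPKD cells on vehicle, and 2 were higher and 6 lower in ADPKD cells under inhibitor, with medians of 0.153 and -0.7. The 4 became 2 without WT vehicle replicate 1 or ADPKD vehicle replicate 1 and with the GC trend removed. The 2 became 0 without WT inhibitor replicate 2 or either ADPKD inhibitor library and 1 without either WT vehicle library, with no filter on low counts or with the 2 groups alone.

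Other long noncoding RNAs were read for comparison. Of the 24 such RNAs tested, 8 were higher and 3 lower in ADPKD cells on vehicle, where 28.8% and 27.6% of all genes were. With the inhibitor in ADPKD cells 4 were higher and 7 lower, against 22.3% and 19.1% of all genes. With the inhibitor in WT cells 5 were higher and 2 lower, against 13.9% and 11.6% of all genes. The 8 became 5 without WT vehicle replicate 1, and the 5 became 3 without either WT vehicle or either ADPKD inhibitor library, and also with RLE scaling, the 5 CPM filter, the 2 groups alone, DESeq2 or the length trend removed. The 2 became 0 with the 5 CPM filter or without WT vehicle replicate 2, and 1 in 6 other alternatives. Lncpint, a p53-induced RNA, rose in ADPKD cells (2.23 ± 0.253), as did Airn, the antisense RNA at Igf2r (1.67 ± 0.263). Firre, an X-linked RNA of nuclear organisation, was lower in ADPKD cells (-0.71 ± 0.0953) and rose with the inhibitor there (1.31 ± 0.096). Mir17hg, the host of the miR-17 cluster, rose with the inhibitor in WT cells (0.98 ± 0.186).

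Among 10759 genes of at least 5 CPM on average, those most like each member over the 8 libraries were found by Pearson's r of log2 CPM, given as a description. Malat1 had no close match: Kmt2e was the nearest at r = 0.8483, and 0 genes exceeded 0.9. Neat1 was most like Tcf21 (0.9794), Map3k8 and Adgrl1. Gas5 was most like Asb6 (0.9858), the snoRNA host Epb41l4aos (0.9813) and Dok4. Snhg1 was most like Fbrs (0.9912), Vasp and Hspb1, and Snhg12 most like Taldo1 (0.984), Tex264 and Sulf2. Kcnq1ot1 was most like Zfp943 (0.9848), Tut4 and Cep350, and Meg3 most like Arsa (0.988), Timm23 and Rab5if. Among the members, Snhg12 and Meg3 were the closest pair (0.929), followed by Gas5 and Snhg1 (0.862). The 8 libraries fall into 4 groups of 2, so the values behind an r are not independent.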

How the data were processed

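RNA-seq counts per gene came from 1 table deposited by the authors for 8 libraries, of oligo dT-selected RNA per the labels' protocols. Per the submitters' processing notes, reads were processed with HISAT2 2.1.0, featureCounts 1.6.0 and DESeq2, on mm10; the strand setting used in counting is not given in the sources used here. Values in the deposited table are raw counts. The vehicle columns carry no treatment word and were matched to the DMSO titles by genotype and replicate number.

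From these counts, edgeR 4.0.16 (R 4.3.3) fitted 1 quasi-likelihood model with the robust option to the 4 groups, after TMM scaling and a filter (minimum count 10, minimum total 15) that kept 17440 genes. Residual df were 4 and the median prior df 8.69. The 5 contrasts were tested and p-values were adjusted by Benjamini-Hochberg over all genes, with 0.05 as the threshold. The procedure was tested on simulated data. CPM are TMM-scaled. Positions, GC content and neighbours came from GENCODE M21 on GRCm38 and promoters from RefSeq.

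The text names all members, up to 4 genes per list and comparison with the smallest p, every gene of lists of up to 8, the 3 genes most like each member, and annotated neighbours. The Cdkn1c, Trnau1ap and Epb41l4aos values follow from these rules. The members and lists were chosen with earlier results of these data known. Genes of few counts that stand at or near 0 in a group are given as levels, with no fold. Replicate numbers did not pair the libraries: replicate differences correlated by -0.0034 to 0.0599 between groups. Alternatives covered scaling, filters, DESeq2 1.42.0, the robust option, 2 groups alone, a replicate block, GC and length trends (lowess span 0.3), and each library left out. Python drew the figures.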

Additional observations from a re-analysis of the deposited data

Results flagged for a closer look

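For 3 of the 7 RNAs the inhibitor's effect differed between ADPKD and WT cells by a test of the difference itself, edgeR's interaction term, which 26.6% of all genes passed. Snhg12 fell in both genotypes and fell further in ADPKD cells, with a difference in log2 response of -1.13 (adjusted p = 0.0058). Both its ADPKD inhibitor libraries were at or below 8.79 CPM. Gas5 differed by -0.80 (adjusted p = 0.011, and 0.066 without ADPKD inhibitor replicate 1): its ADPKD libraries fell from 149 and 136.2 to 74.5 and 82.5 CPM, while the WT inhibitor libraries, at 100.1 and 71.3 CPM, lay on either side of the WT vehicle pair. Neat1 differed by -1.77 (adjusted p = 0.0243), and its 2 WT inhibitor libraries, at 2069 and 1122 CPM, were further apart than the replicates of any other group. The Neat1 difference was not called in 7 of 17 alternatives, at an adjusted p of up to 0.127, while that of Snhg12 was called in all 17.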

How the results depend on the processing

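Over 623 recomputed values of the 35 member results, 551 kept direction and side of the threshold, 37 lost and 14 gained a call, and 21 changed sign, all of members not called. Counts of members and of all genes called stayed within 1.5 times under the alternatives other than left-out libraries. Counts over the related lists did not: snoRNA hosts called in WT cells went from 2 to 4 with RLE scaling or the 5 CPM filter, and in the interaction from 8 to 5 with the length trend removed. Leaving out 1 library gave 3 to 5 members called between genotypes on vehicle (4 with all), 3 to 5 with the inhibitor in ADPKD cells (5), 1 to 3 in WT cells (2), 1 to 4 between genotypes under inhibitor (3) and 1 to 5 for the interaction (3). All genes called ranged from 7725 to 10384 (9842), 4783 to 7817 (7224), 2402 to 4707 (4448), 5799 to 8300 (8081) and 3037 to 5075 (4636) in the same order. The fewest genes in WT cells were called without WT vehicle replicate 1 (2402) and replicate 2 (2887), in ADPKD cells without ADPKD inhibitor replicate 2 (4783), and for the interaction without WT vehicle replicate 1 (3037) and ADPKD inhibitor replicate 2 (3073).

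The replicate block, added although the numbers share nothing but a number, gave 4, 5, 2, 3 and 3 members and 9782, 7198, 4458, 8014 and 4599 genes called, and changed no member's call.

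Signs changed as follows; the cause was not tested. For Snhg1 with the inhibitor in WT cells (0.04) the values were -0.0265 with RLE scaling, -0.0264 with DESeq2, -0.0679 with the 5 CPM filter, -0.0537 with the length trend removed, and -0.10 to 0.16 with 1 library left out. With the GC trend removed, Kcnq1ot1 in the inhibitor comparison in ADPKD cells became -0.12, Snhg1 between genotypes under inhibitor -0.16 and the Malat1 interaction -0.13. Gas5 between genotypes under inhibitor became 0.0148 with the length trend removed. With 1 library left out, that Gas5 value ranged from -0.34 to 0.14 and Gas5 in WT cells from -0.33 to 0.16. Malat1 ranged from -0.0565 to 0.41 (interaction), -0.41 to 0.0408 (inhibitor in WT), -0.31 to 0.16 (genotypes under inhibitor) and -0.20 to 0.14 (inhibitor in ADPKD), Neat1 in WT cells from -0.0508 to 0.83, and Meg3 between genotypes on vehicle from -0.28 to 0.59. The list counts were recomputed under alternatives chosen after seeing the data. Meg3 rests on the fewest reads of the members (24 to 250 counts), and Mirg, Rtl1, Dio3 and Begain on fewer.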
